A study of Mus musculus with 8 samples.

Results

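The 9 genes described here encode the parts of the MHC class I pathway: the class I heavy chains H2-K1 and H2-D1, their light chain B2m, the peptide transporter subunits Tap1 and Tap2, the loading chaperone Tapbp, the immunoproteasome subunits Psmb8 and Psmb9, and the transactivator Nlrc5. They were chosen by name, after the differences between wild-type and mutant libraries were known, and were found by matching symbols to the identifiers of the 49315 genes counted. Messenger RNA of entire mouse hearts was sequenced at E9.5 (embryonic day 9.5), in 4 wild-type (WT) libraries and 4 libraries from embryos homozygous for Tbx20EH1Mut. Each library pooled 3 hearts, so that 12 hearts stood behind each genotype, and the groups received no treatment. The Tbx20EH1Mut allele replaces 2 amino acids in the EH1 domain, the stretch through which the cardiac T-box factor Tbx20 binds TLE corepressors, and it was introduced into the germline by genome editing. The change leaves the transcript in place, so counts do not check the genotype: Tbx20 was at 367.6 ± 11.1 CPM (counts scaled to a common library size; SD, n = 4) in WT and 267.0 ± 44.9 CPM (SD, n = 4) in Tbx20EH1Mut libraries. Editing was done in embryos from C57BL/6J oocytes and sperm of a male that carried a tagged Tbx20 allele. The strain of that male is not given in the sources used here. The founder's edited allele lacked that tag and was otherwise wild type, and the line was bred to C57BL/6J females and back-crossed over further generations.

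MHC class I molecules display short peptides from inside the cell on its surface, where T cells and natural killer cells read them. Proteasomes cut proteins into peptides, the Tap1 and Tap2 transporter carries the peptides into the endoplasmic reticulum, and tapasin, the product of Tapbp, holds the heavy chain and B2m ready to be loaded. Interferons raise most of these genes, partly through Nlrc5, which acts with RFX, CREB and NF-Y factors at a shared promoter element. Embryonic tissue is known for low class I expression. B2m lies on chromosome 2 and Nlrc5 on chromosome 8. The other 7 members lie on chromosome 17 in the H2 complex, whose genes differ among mouse strains.

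H2-K1 was the member that differed most between the genotypes. Its RNA was 6.74-fold higher in Tbx20EH1Mut hearts, while H2-D1, the other classical heavy chain, was at nearly the same level in both genotypes. B2m and Tapbp were higher in the mutant mean but overlapped between the genotypes, Tap1 was lower in the mutant mean on few reads, and Tap2, Psmb8, Psmb9 and Nlrc5 were close to undetected in all 8 libraries. Of the 9 members, 5 had enough counts to be fitted and 4 (Tap2, Psmb8, Psmb9 and Nlrc5) did not. A gene is called here when its edgeR adjusted p is under 0.05 and its absolute log2 fold change is over 0.5. By that rule 1 member was called, H2-K1, beside 24.6% of the 17163 genes fitted, of which 12.5% were higher and 12.1% lower in Tbx20EH1Mut. That is 2148 higher and 2070 lower genes, and upper-quartile scaling gave 2516 and 1566. On the adjusted p alone 29.3% of all genes passed, and in 30.5% the libraries of the genotypes did not overlap. The members were chosen on this contrast, so nothing is read from their share or their calls, and their differences are given as a description with no test.

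The promoters of both classical heavy chains and of the light chain are shown first, because H2-K1 and H2-D1 carry nearly the same sequence and yet differed in how they moved between the genotypes. The sequences are from RefSeq on GRCm38.p6 and run from 250 bases before to 50 bases after the transcription start, on the gene's own strand. An entry was matched for 7 of the 9 members, and none for Tap2 and Nlrc5. Capitals mark matches, on either strand, to GGGATTCCC (a kappaB site), GAANNGAAA and GAAANNGAA (letters of interferon response elements), TGACG (the CREB part of the class I promoter element), CCAAT (the NF-Y box) and GGTGTGA (a T-box site). The letters GAAANNGAA were added, and those of the kappaB site shortened, after the sequences had been seen. H2-K1 has 2 entries, and the one that starts at the start of the gene in the count tables is printed.
H2-K1, chr17:34000284-34000583, minus strand: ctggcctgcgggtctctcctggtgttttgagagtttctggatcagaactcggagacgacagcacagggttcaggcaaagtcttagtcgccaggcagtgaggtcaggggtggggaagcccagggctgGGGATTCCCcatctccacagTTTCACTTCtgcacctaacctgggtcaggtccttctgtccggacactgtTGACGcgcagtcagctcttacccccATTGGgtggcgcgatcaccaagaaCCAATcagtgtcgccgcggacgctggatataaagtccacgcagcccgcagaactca
H2-D1, chr17:35262844-35263143, plus strand: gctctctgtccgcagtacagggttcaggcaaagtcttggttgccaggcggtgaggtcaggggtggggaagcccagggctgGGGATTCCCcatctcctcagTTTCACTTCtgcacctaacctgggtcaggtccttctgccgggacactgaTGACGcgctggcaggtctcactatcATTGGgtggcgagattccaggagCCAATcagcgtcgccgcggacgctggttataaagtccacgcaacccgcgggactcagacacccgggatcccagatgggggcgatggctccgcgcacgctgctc
B2m, chr2:122147437-122147736, plus strand: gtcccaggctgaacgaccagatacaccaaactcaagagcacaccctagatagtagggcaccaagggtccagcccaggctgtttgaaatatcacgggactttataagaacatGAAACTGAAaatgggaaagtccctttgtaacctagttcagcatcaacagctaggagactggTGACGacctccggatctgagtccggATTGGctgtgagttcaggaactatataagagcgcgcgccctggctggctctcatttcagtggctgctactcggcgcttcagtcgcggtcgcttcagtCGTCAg

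The H2-K1 and H2-D1 promoters aligned over 242 columns, of which 217 (89.7%) were identical. Each held 1 match to GGGATTCCC, 1 to GAANNGAAA, 1 to TGACG and 2 to CCAAT, in the same order, and neither held GAAANNGAA or GGTGTGA. The B2m promoter held 1 match to GAAANNGAA, 2 to TGACG and 1 to CCAAT, and none to GGGATTCCC, GAANNGAAA or GGTGTGA. The letters GGGATTCCC stood in 0.353% of 32544 promoters of this length, whereas GAANNGAAA stood in 7.57%, GAAANNGAA in 8.53%, TGACG in 20.9%, CCAAT in 37.4% and GGTGTGA in 3.95%. None of the 7 member promoters held GGTGTGA, which says only that these letters are not in these windows. A match is a run of letters and not a measured binding site.

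H2-K1 (ENSMUSG00000061232, chr17:33996017-34000333, minus strand) encodes the heavy chain of the classical K molecule. Its level in WT libraries 1 to 4 was 4.89, 3.93, 3.94 and 4.93 CPM, with a mean of 4.42 ± 0.561 CPM (SD, n = 4). In Tbx20EH1Mut libraries 1 to 4 it was 30.7, 33.7, 23.01 and 31.9 CPM, with a mean of 29.8 ± 4.71 CPM (SD, n = 4). All 4 mutant libraries were far above every WT library, and replicate 3 was the lowest of them. The log2 fold change was 2.75 ± 0.16 (SE), and it lay between 2.69 and 2.87 when any 1 library was left out. Among all fitted genes 2.05% had a log2 fold change above 2.

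H2-D1 (ENSMUSG00000073411, chr17:35262730-35267499, plus strand) encodes the heavy chain of the classical D molecule, which performs the same task. WT libraries held 7.16, 6.09, 7.17 and 8.79 CPM, and Tbx20EH1Mut libraries held 9.01, 8.47, 9.19 and 7.34 CPM. The means were 7.30 ± 1.12 CPM and 8.50 ± 0.833 CPM (SD, n = 4 each), and the ranges overlapped. The log2 fold change was 0.22 ± 0.16 (SE). A scale that divides CPM by the length of a gene's exons in kb allows the heavy chains to be compared within a library. On it H2-K1 was below H2-D1 in every WT library, with ratios of 0.675, 0.638, 0.544 and 0.555, and above it in every Tbx20EH1Mut library, with ratios of 3.37, 3.93, 2.48 and 4.29. The order of the classical heavy chains was thus opposite in the 2 genotypes, at 1.70 against 2.83 CPM per kb in WT and 11.4 against 3.30 CPM per kb in Tbx20EH1Mut.

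Class I genes resemble each other, and reads that match several genes can be dropped or shared in counting. Of the 3969 stretches of 100 bases in H2-K1 transcripts, 0.957% also occurred in another gene, each of them in H2-Q10. In H2-D1 transcripts the share was 3.59%, and none of the stretches was common to H2-K1 and H2-D1. H2-Q10 held 112 counts over the 8 libraries, against 5171 for H2-K1.

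**Figure D1:**
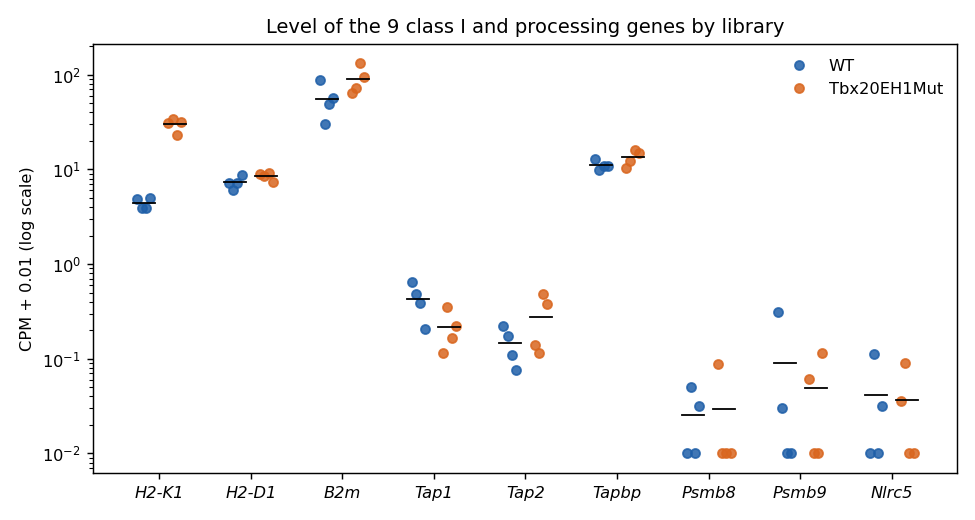
Level of each member in each library, in CPM with 0.01 added, on a log axis. Each point is 1 library, 4 per genotype, and the black lines are means. The H2-K1 points of the genotypes are separated (4.42 against 29.8 CPM in the mean), those of the other members overlap, and Psmb8, Psmb9 and Nlrc5 lie near the bottom of the axis.

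B2m (ENSMUSG00000060802, chr2:122147686-122153083, plus strand) encodes the light chain that every class I molecule shares. It was the most abundant member. WT libraries held 87.5, 30.0, 49.5 and 56.4 CPM, and Tbx20EH1Mut libraries held 63.7, 72.3, 131 and 94.0 CPM. WT replicate 1 was above Tbx20EH1Mut replicates 1 and 2, so that the genotypes overlapped. The means were 55.9 ± 23.9 CPM and 90.4 ± 30.2 CPM (SD, n = 4 each), and the log2 fold change was 0.69 ± 0.31 (SE). B2m did not pass the rule for a call. Without WT replicate 1 it passed, at a log2 fold change of 0.99, which is given as a description.

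The B2m message is short, with 860 exon bases, and its level followed that of other short genes from library to library. Over 381 genes with less than 1 kb of exons and at least 5 CPM in the mean, the median deviation from the mean of all libraries on the log2 scale was 0.24, -0.78, -0.20 and -0.28 in WT libraries 1 to 4 and 0.07, 0.08, 0.63 and 0.27 in Tbx20EH1Mut libraries 1 to 4. WT replicate 2, the library with the least B2m, was the lowest, and Tbx20EH1Mut replicate 3, the one with the most, was the highest. With an offset on gene length in the fit, the log2 fold change of B2m was 0.34, and that of H2-K1 was 2.73. The part of this library difference in the B2m result was not tested beyond that offset.

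**Figure D2:**
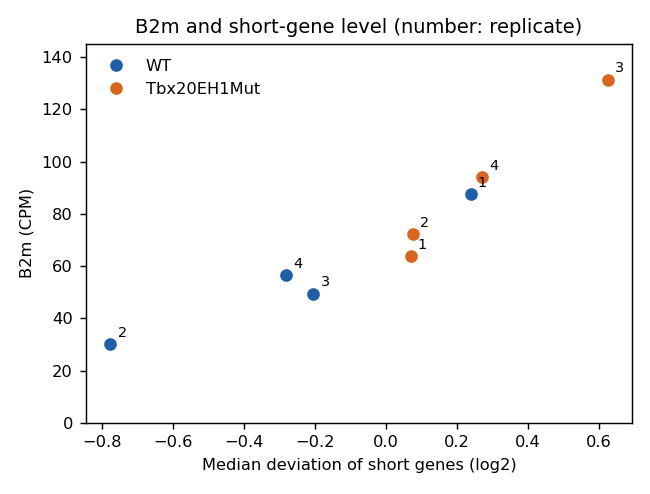
B2m level in CPM against the median log2 deviation of 381 genes with less than 1 kb of exons, with each library as 1 point labelled by its replicate number. WT replicate 2 is lowest on both axes, at 30.0 CPM, and Tbx20EH1Mut replicate 3 is highest on both, at 131 CPM.

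Tapbp (ENSMUSG00000024308, chr17:33915899-33929288, plus strand) encodes tapasin, which bridges the transporter and the empty class I molecule. WT libraries held 12.8, 9.86, 11.0 and 10.8 CPM, and Tbx20EH1Mut libraries held 10.4, 12.2, 16.1 and 14.8 CPM. The highest values were in Tbx20EH1Mut replicates 3 and 4, and the remaining mutant libraries lay within the WT range. The log2 fold change was 0.27 ± 0.17 (SE). Tapbp shares 61 exon bases with Zbtb22 on the same strand and 665 with Gm19412 on the opposite one, and reads from these stretches cannot be assigned with certainty. Strand could separate only those of Gm19412, and the strand setting of the counting is not given in the sources used here.

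The transporter itself was at the edge of detection. Tap1 (ENSMUSG00000037321, chr17:34187553-34197225, plus strand) had 21, 23, 19 and 9 counts in WT and 4, 13, 5 and 8 counts in Tbx20EH1Mut libraries. In CPM the means were 0.420 ± 0.184 in WT and 0.204 ± 0.104 in Tbx20EH1Mut (SD, n = 4 each), with a log2 fold change of -1.01 ± 0.53 (SE). The ranges overlapped, and Tap1 was not called. Tap2 (ENSMUSG00000024339, chr17:34203527-34216321, plus strand), the partner subunit, had 7, 8, 5 and 3 counts in WT and 5, 4, 15 and 14 counts in Tbx20EH1Mut libraries. Tap2 was below the filter and was not fitted. Its highest counts were in Tbx20EH1Mut replicates 3 and 4, the libraries in which Tapbp was also highest, and the lowest was in WT replicate 4. With 102 counts for Tap1 and 61 for Tap2 over all libraries, the depth limits what can be said of the transporter in either direction.

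The immunoproteasome subunits, which replace their standard counterparts in immune cells and under interferon, were nearly undetected. Psmb8 (ENSMUSG00000024338, chr17:34197721-34201454, plus strand) had 6 counts in all 8 libraries, and 5 of the libraries had none. Psmb9 (ENSMUSG00000096727, chr17:34181988-34187764, minus strand) had 17 counts, of which WT replicate 1 held 10. Psmb9 and Tap1 overlap head to head by 212 exon bases on opposite strands, so a few of these reads could come from either gene. The standard subunits that they replace were abundant and were at 188 and 165 CPM for Psmb5 (log2 fold change -0.18) and 351 and 339 CPM for Psmb6 (-0.05) in WT and Tbx20EH1Mut, respectively. Psmb7, the standard counterpart of Psmb10, was at 246 and 210 CPM (-0.23). Psmb10, the third immunoproteasome subunit, is not a member, and it differed from Psmb8 and Psmb9 in being well detected, at 34.2 ± 14.3 CPM in WT and 27.7 ± 10.8 CPM in Tbx20EH1Mut (SD, n = 4 each; log2 fold change -0.30, edgeR adjusted p = 0.49). Of the 14 standard 20S proteasome genes 0 were called by edgeR, 0 had an unadjusted p under 0.05 and 0 were called by DESeq2.

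Nlrc5 (ENSMUSG00000074151, chr8:94434356-94527272, plus strand), the transactivator of class I genes, had 10 counts over the 8 libraries, 6 in WT and 4 in Tbx20EH1Mut. WT replicate 2 held 5 of them and Tbx20EH1Mut replicate 2 held 3. These counts are too few to compare the genotypes, and 4 libraries had none. A count of 0 allows up to 3 counts, and this limit covers counting error only. Ciita, the corresponding transactivator of class II genes, had 15 counts and was not fitted. Rfx5, a DNA-binding partner of both transactivators, was at 8.65 ± 2.06 CPM in WT and 5.14 ± 0.906 CPM in Tbx20EH1Mut (SD, n = 4 each), and it fell by 0.75 on the log2 scale with an edgeR adjusted p of 0.0278. The call of Rfx5 was lost with some libraries left out, where its adjusted p reached 0.0707.

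Across the 8 libraries the fitted members did not follow one profile. The correlation of log2 CPM was highest between B2m and Tapbp (r = 0.91) and lowest between H2-D1 and Tap1 (r = -0.74), and H2-K1 had r = 0.58 with H2-D1, 0.60 with B2m, 0.51 with Tapbp and -0.62 with Tap1. These values are descriptions over 8 libraries that share depth, genotype and short-gene level. Among 10499 genes with a symbol and at least 5 CPM, the profile nearest to the mean of the fitted members was that of Bex4 (r = 0.99), followed by Anxa5, Vim, Dnajc30 and Pcbd2. The profile nearest to that of H2-K1 alone was that of Arrdc3, followed by Tpd52, Aldoc, H2-Ab1 and Sema4d, all at r = 0.99 or above. The ranking against H2-K1 alone was chosen after its values were seen.

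The rest of the class I pathway was looked at next, to see whether H2-K1 was accompanied by other steps of antigen processing. Of 28 further pathway genes 27 were fitted, and 1 rose and 5 fell, which is 22.2% beside the 24.6% called over all genes. With the mean log2 level of the foregut markers described further on as a covariate, 5 rose and 5 fell. In that fit the genes called over all genes went from 4218 to 6636. In the main fit the median log2 fold change of the 27 pathway genes was -0.28, against 0.00 over all genes. Those that fell were Sec61a1, a subunit of the translocation channel of the endoplasmic reticulum, at 178 ± 37.0 CPM in WT and 111 ± 6.20 CPM in Tbx20EH1Mut (SD, n = 4 each; log2 fold change -0.68, edgeR adjusted p = 0.00809), the peptide-trimming enzymes Erap1 (-0.81, adjusted p = 0.0411), Lnpep (-0.97, adjusted p = 0.0308) and Thop1 (-0.63, adjusted p = 0.0133), and Rfx5. Npepps, a cytosolic aminopeptidase, rose by 0.54 on the log2 scale (adjusted p = 0.0407). The calls of Lnpep, Erap1 and Npepps were each lost with some libraries left out, with adjusted p reaching 0.0843, 0.11 and 0.114. The peptide-loading chaperones Calr, Canx and Pdia3 had log2 fold changes of -0.28, -0.28 and -0.25 and were not called. The proteasome activator subunits Psme1 and Psme2 were at 0.42 and 0.34 and were not called either.

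Genes of interferon signalling and response, receptors and kinases included, moved in both directions. Of 46 genes 31 were fitted, and 6 rose and 2 fell, which is 25.8% beside the 24.6% called over all genes, with a median log2 fold change of -0.06 against 0.00 over all genes. With the foregut covariate 5 rose and 5 fell, beside 6636 genes called over all genes in that fit. The antiviral membrane proteins Ifitm1 (2.08, edgeR adjusted p = 0.00201) and Ifitm3 (1.53, adjusted p = 0.00133) and the oligoadenylate synthetase-like gene Oasl2 (2.02, adjusted p = 0.0132) rose. Ifih1, a sensor of double-stranded RNA, fell by 1.79 on the log2 scale (adjusted p = 0.00258). The calls of Ifitm1 and Oasl2 were lost under at least 1 other setting of the fit, with adjusted p reaching 0.0504 and 0.163. Irf1, an interferon-induced factor that binds class I promoters, was at 4.81 ± 0.496 CPM and 5.16 ± 0.739 CPM (SD, n = 4 each; log2 fold change 0.10, adjusted p = 0.70) in WT and Tbx20EH1Mut, respectively.

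Other heavy chain genes were higher in the mutant in several cases, and 0 were called lower by edgeR (1 at an unadjusted p under 0.05, 0 by DESeq2). Of 23 class I-like genes 17 were fitted, and 6 rose, which is 35.3% beside 24.6% called and 12.5% called higher over all genes, with a median log2 fold change of 0.49 against 0.00. The list is not complete: it leaves out H2-Q3 (-0.70) and H2-Q5 (1.17), which were fitted and not called. H2-Q10, a secreted class I-like molecule, had 2, 6, 4 and 1 counts in WT and 26, 34, 25 and 14 counts in Tbx20EH1Mut libraries (log2 fold change 3.19 ± 0.56, SE; edgeR adjusted p = 0.00312). H2-K2, a gene beside H2-K1, had 0, 7, 9 and 3 counts in WT and 53, 26, 12 and 21 counts in Tbx20EH1Mut (2.85 ± 0.71; adjusted p = 0.0155). For both genes every mutant library was above every WT library, on few reads. H2-Q7, which encodes the membrane-anchored Qa-2 antigen, was at 1.55, 1.04, 0.598 and 0.851 CPM in WT and 5.34, 4.14, 1.94 and 3.42 CPM in Tbx20EH1Mut (1.89 ± 0.38; adjusted p = 0.00623). H2-T23, which encodes Qa-1, was at 0.364, 0.306, 0.637 and 0.371 CPM in WT and 1.502, 1.35, 1.34 and 2.01 CPM in Tbx20EH1Mut (1.88 ± 0.35; adjusted p = 0.00409). H2-Q6 (1.82, adjusted p = 0.0334), which overlapped between the genotypes, and Fcgrt (1.42, adjusted p = 0.0195), the neonatal Fc receptor, completed the 6. The calls of H2-K2, H2-Q6 and Fcgrt were each lost with some libraries left out. With the foregut covariate 2 heavy chain genes were called, H2-Q10 and H2-T23, beside 6636 genes over all genes in that fit, and H2-Q6 went to -0.18. The most abundant of the non-classical genes, H2-Q2 and H2-Q4, were at 18.4 and 15.2 CPM in WT and 16.7 and 20.2 CPM in Tbx20EH1Mut and were not called. Counts of H2-Q7, H2-Q6 and H2-Q10 are uncertain, since 11.98% of the stretches of 100 bases in H2-Q7 transcripts, 10.8% in H2-Q6 and 8.01% in H2-Q10 also occurred in another gene, against 2.16% in H2-Q4.

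H2-Ab1, the beta chain of the class II A molecule, lies 262.9 kb from the start of H2-K1 and followed it closely. It was at 11.96, 6.84, 9.18 and 10.4 CPM in WT and 59.7, 58.7, 44.4 and 61.3 CPM in Tbx20EH1Mut libraries. The log2 fold change was 2.55 ± 0.18 (SE; edgeR adjusted p = 3.24e-05), and it stayed between 2.43 and 2.67 with any 1 library left out. As for H2-K1, replicate 3 was the lowest mutant library. None of the stretches of 100 bases in H2-Ab1 transcripts occurred in another gene. Its partner chain H2-Aa had 8 counts in all, too few to be fitted. H2-Eb1, the beta chain of the class II E molecule, had a log2 fold change of -0.61 and was not called, and Cd74, the invariant chain that class II molecules need for loading, fell by 1.64 on the log2 scale (adjusted p = 0.0196) from 0.602 ± 0.156 to 0.192 ± 0.0702 CPM (SD, n = 4 each). The call of Cd74 was lost with some libraries left out, with adjusted p reaching 0.0756.

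The position of the members on chromosome 17 was then examined, because strains carry different H2 haplotypes. Within 1 Mb on either side of the members (chr17:32915899-36267499) 144 genes other than members were fitted, and 21 rose and 11 fell, which is 22.2%, beside 22% of the 664 fitted genes on the rest of chromosome 17 and 24.6% of all genes. The interval as a whole therefore had a share of called genes near the background. With the foregut covariate 22 rose and 25 fell, beside 6636 genes called over all genes in that fit. With single libraries left out 16 (without WT replicate 4) to 46 (without WT replicate 1) were called. Those 2 fits called 2836 and 5667 genes over all genes. The rises in the interval were not contiguous. Between H2-K1 and H2-Ab1 lie 26 genes, of which 10 were fitted and 0 were called by edgeR, with log2 fold changes from -1.66 to 0.84, Tap1 among them. Of these 10 genes 1 had an unadjusted p under 0.05, and DESeq2 called 0. H2-D1, 1262.4 kb from H2-K1, did not follow it, while H2-Q7 and H2-Q10 beyond it did. In all 5 of the 144 genes had a log2 fold change above 2, beside 2.05% of all fitted genes. They were H2-K2, H2-Ab1, H2-Q10, Ier3 and Gm10499 (2.21), and Ly6g6f was at -2.33. Gm10499 and Ly6g6f are named after their values were seen. Ier3, a stress-induced gene, was at 6.87 ± 2.83 CPM in WT and 51.0 ± 8.52 CPM in Tbx20EH1Mut (SD, n = 4 each; log2 fold change 2.90 ± 0.28, adjusted p = 0.000159). Gene counts carry no alleles, so a difference in H2 haplotype between the WT and mutant embryos and a difference in regulation cannot be told apart here. It is not stated whether WT embryos were littermates of the mutants.

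**Figure D3:**
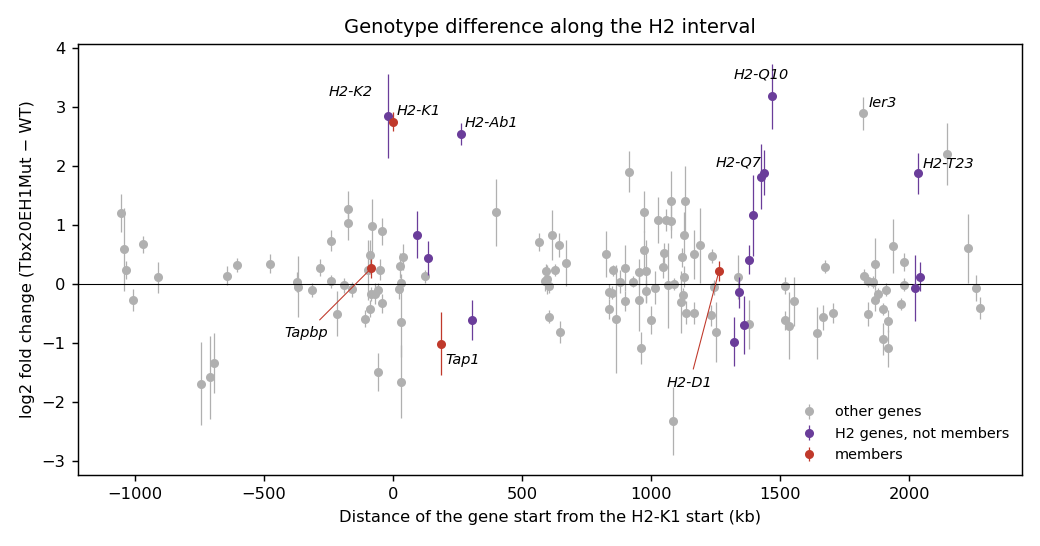
Log2 fold change (Tbx20EH1Mut minus WT) of each fitted gene of the H2 interval against the distance of its start from that of H2-K1 in kb, with SE as vertical bars. Members are red, other genes with an H2 symbol purple and all others grey. H2-K1 (2.75) and H2-Ab1 (2.55) stand high, and the fitted genes between them range from -1.66 to 0.84. H2-D1 (0.22) and Tapbp (0.27) lie near 0.

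Whole hearts hold several kinds of cells that differ in class I expression, so the markers of these cells are given beside the members. In bulk RNA fewer cells of a type and less RNA per cell cannot be told apart. Leukocytes, the cells richest in class I, were scarce: Ptprc, which encodes CD45, had 17 counts in all libraries, 3 of the 22 leukocyte markers were at or under 3 counts in every library, and 12 were below the filter. Their summed level was 44.1 to 47.2 CPM in WT and 31.0 to 36.7 CPM in Tbx20EH1Mut (exact two-sided permutation test over 70 arrangements, p = 0.0286, the smallest this design allows). The part of leukocytes in the H2-K1 result was not tested. Of the 10 leukocyte markers fitted, 2 fell, Lyz2 and Coro1a, which is 20% beside 24.6% over all genes, and 0 rose (1 at an unadjusted p under 0.05 and 1 by DESeq2). The gene behind both is Csf1r, a macrophage receptor, which did not overlap between the genotypes and had an edgeR adjusted p of 0.0501. The call of Coro1a was lost with some libraries left out, with adjusted p reaching 0.0573, and under another setting of the fit (0.133). Endothelial markers summed to 1037 to 1222 CPM in WT and 1338 to 1465 CPM in Tbx20EH1Mut (exact two-sided permutation test, p = 0.0286). Of 14 fitted 7 rose, which is 50% beside 24.6% called and 12.5% called higher over all genes. Cldn5 (1.91), Flt1 (1.01) and Kdr (0.68) were among the 7. The others were not called and went down to a log2 fold change of -0.42, against a median of 0.38 over the 14. The call of Kdr was lost with the foregut covariate, at 0.32 with an edgeR adjusted p of 0.276. With library size alone the endothelial sums missed the threshold (exact permutation p = 0.0571).

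The summed markers of foregut epithelium, which lies against the heart at this stage, were higher in the libraries with more H2-K1. They summed to 272 to 387 CPM in WT and 954 to 1218 CPM in Tbx20EH1Mut (exact two-sided permutation test, p = 0.0286), a ratio of 3.40. Of the 12 markers 6 rose, which is 50% beside 24.6% called and 12.5% called higher over all genes. Shh and the keratins Krt8, Krt18 and Krt19 were among the 6. The call of Shh was lost with some libraries left out, with adjusted p reaching 0.0549. The 3 keratins made up 81.1% to 99.5% of the sum in WT and 80.9% to 96.2% in Tbx20EH1Mut, so the sum is mostly a keratin level. The other 9 markers summed to 1.45 to 73.1 CPM in WT and 36.4 to 233 CPM in Tbx20EH1Mut, and WT replicate 2 was above Tbx20EH1Mut replicate 3. Within a genotype the order of the libraries by foregut sum and by H2-K1 was not the same: replicate 3 was lowest in both among mutant libraries, while WT replicate 2 had the highest foregut sum of the WT libraries and the least H2-K1. The epithelial gene Epcam was at 1.64, 15.3, 0.657 and 3.03 CPM in WT and 75.4, 67.2, 10.7 and 27.5 CPM in Tbx20EH1Mut. The range of Epcam was wide within each genotype, and the ranges overlapped. The part of foregut tissue in the H2-K1 result was not tested beyond a covariate. This covariate was the mean log2 level of the 12 markers, with equal weight for each, and not their sum. All 12 had log2 fold changes above 0, from 1.61 to 3.48, so the covariate is tied to genotype. It cannot cleanly separate foregut level from genotype. With this foregut covariate the log2 fold change of H2-K1 was 2.55 and that of H2-D1 was 0.39. In the same fit it was 1.99 for B2m and 0.72 for Tapbp, and both were called. Erythroid markers went the opposite way, with sums of 1868 to 4964 CPM in WT and 353 to 1100 CPM in Tbx20EH1Mut (exact two-sided permutation test, p = 0.0286). All 9 fitted erythroid markers fell, which is 100% beside 24.6% called and 12.1% called lower over all genes. The erythroid difference missed the threshold when any mutant library was left out (exact permutation p = 0.0857). Cardiomyocyte markers, which define the tissue, summed to 34837 to 39696 CPM in WT and 31707 to 44857 CPM in Tbx20EH1Mut (p = 1.0), and neural crest markers to 98.2 to 115 CPM and 98.5 to 136 CPM (p = 0.2; exact two-sided permutation test for each). Of 11 cardiomyocyte markers 3 were called, which is 27.3% beside 24.6% over all genes. Myl3 rose (0.75) and Myh6 (-1.26) and Actn2 (-0.52) fell. The calls of Myl3 and Actn2 were each lost with some libraries left out, with adjusted p reaching 0.115 and 0.106. Of 5 fitted neural crest markers 1 rose, which is 20%.

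**Figure D4:**
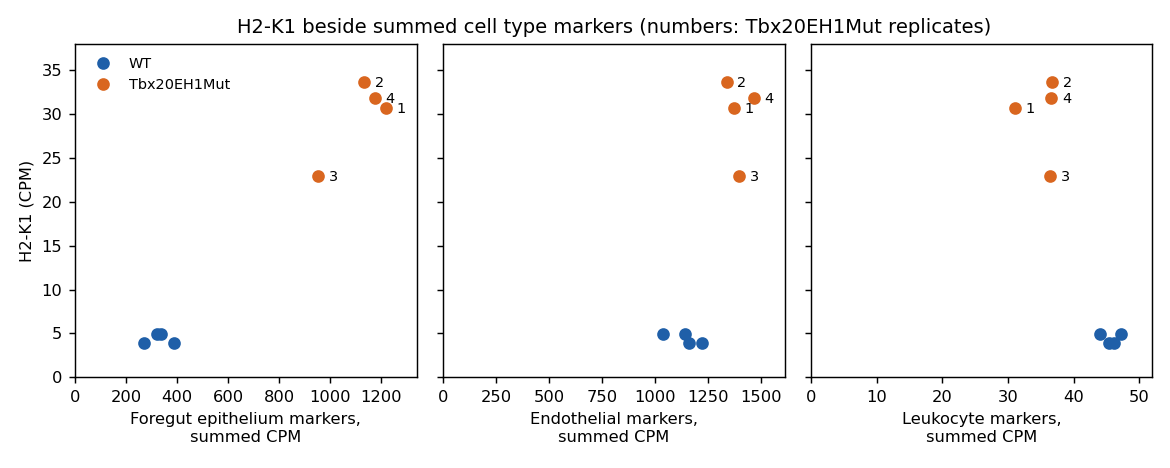
H2-K1 level in CPM against the summed level in CPM of foregut epithelium, endothelial and leukocyte markers, with each library as 1 point and mutant points labelled by replicate number. Foregut and endothelial sums are higher in all 4 Tbx20EH1Mut libraries, leukocyte sums are lower, and within a genotype H2-K1 spans 3.93 to 4.93 CPM in WT and 23.01 to 33.7 CPM in Tbx20EH1Mut.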

How the data were processed

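The authors deposited raw read counts per Ensembl gene for each library, made from poly-A-selected, paired-end RNA-seq. Their processing notes name Trimmomatic 0.36, STAR 2.5.2b and GRCm38 (mm10), while the counting tool and strand setting are not given in the sources used here. Symbols came from GENCODE M21 (48970 of 49315 identifiers matched). Counts were fitted in edgeR 4.0.16 (R 4.3.3) with filterByExpr, TMM scaling and quasi-likelihood tests for genotype over 4 WT and 4 Tbx20EH1Mut libraries, with Benjamini-Hochberg adjustment over 17163 genes. The thresholds, adjusted p under 0.05 and absolute log2 fold change over 0.5, are those of the study's methods, whose text also uses stricter fold thresholds. CPM use TMM-scaled library sizes. The libraries held 33359322 to 49523086 counts, and fold changes of genes under 1 CPM are the least precise. WT replicate 1 stood apart from the other WT libraries on the first principal component. All replicate pairs differed by more than sampling noise. The fit was tested on simulated counts.

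The members and lists were chosen with earlier results of these data known. Named genes are the members, Tbx20, up to 4 genes per list or interval with the largest called changes without overlap, Psmb5, Psmb6, Psmb7, Psmb10, Irf1, Rfx5 and Ciita, 1 gene that is not reported here, and the 5 genes of most similar profile; other names (such as Thop1, Npepps, Fcgrt, H2-Q6, Epcam, Csf1r, Myl3, Actn2 and the loading chaperones) were chosen after their values were seen. Ahsp, an erythroid marker, was not used here. Alternatives were RLE and upper-quartile scaling, library size alone, 2 other filters, no fold threshold, a replicate block, DESeq2 1.42.0 and leaving out each library. A foregut covariate, an offset on gene length (loess span 0.3) and leaving out 2 libraries together were added after seeing the data.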

Additional observations from a re-analysis of the deposited data

Results flagged for a closer look

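In 6 of 96 groups of 4 libraries 1 library lay far from the others, and chance alone sets 1 in 20 groups apart in this way. H2-Ab1 in Tbx20EH1Mut was at 44.4 CPM in replicate 3, below the other mutant libraries. Ifitm3 in WT was at 5.37 CPM in replicate 1, above the rest. Shh in WT was at 4.03 CPM in replicate 2, the WT library that also had the most Epcam. The summed leukocyte markers were at 31.0 CPM in Tbx20EH1Mut replicate 1, the lowest of the mutant libraries. The summed cardiomyocyte markers had a lowest WT value of 34837 CPM, and the summed neural crest markers a highest WT value of 115 CPM. No member was set apart in this way in either genotype.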

How the results depend on the processing

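H2-K1 kept its direction under every alternative run, at log2 fold changes of 2.55 to 2.93, and passed the rule for a call in each. No fitted member changed direction. The members were chosen on this contrast, so their calls are labels and not a test. Among genes that are not members, the foregut covariate turned H2-Q6 (1.82) to -0.18 and Epcam (3.12) to -0.40. Others also changed direction under at least 1 alternative. For example, Foxa2 (2.69) reached -0.27, Foxa1 (3.02) -0.81, Cldn6 (2.22) -2.11, Cldn4 (2.05) -1.71 and Cdh1 (1.98) -1.57. Epcam and the genes of this example are among the 12 markers averaged into the foregut covariate. Each is thus adjusted partly for itself, and that fit cannot show how they depend on foregut level. The foregut covariate moved the split of higher and lower calls from 21 and 11 to 22 and 25 in the interval. Library size alone moved the split from 2148 and 2070 to 1859 and 2248 over all genes. B2m (0.69) was called without WT replicate 1 (0.99), with the foregut covariate (1.99) and without WT replicate 1 and Tbx20EH1Mut replicate 3 together (0.77). The number of members called, 1 in the report, was 3 with the foregut covariate, 2 with those libraries left out together and 1 to 2 with single libraries left out. With the foregut covariate the genes called over all genes rose from 4218 to 6636, the further class I pathway genes from 6 to 10 and the other heavy chain genes fell from 6 to 2, so the rises of H2-K2, H2-Q6, H2-Q7 and Fcgrt were not called there (Fcgrt was at 1.92 with an edgeR adjusted p of 0.0517). Without a fold threshold 10 of the further pathway genes passed, 1 higher and 9 lower, beside 29.3% of all genes. The cause of these shifts was not tested. With single libraries left out, 2836 to 5667 genes, 2 to 7 further pathway genes, 4 to 7 heavy chain genes, 6 to 8 interferon genes and 16 to 46 interval genes were called. The interval count was 19 without WT replicate 3, 16 without WT replicate 4 and 20 without Tbx20EH1Mut replicate 4, against 32, and the pathway count was 2 without WT replicate 2, WT replicate 3 or Tbx20EH1Mut replicate 3 and 3 without Tbx20EH1Mut replicate 1 or 4. The ratio of summed endothelial markers was 1.22, and with library size alone it was 1.17 (exact permutation p = 0.0571). The erythroid ratio lay between 0.224 and 0.313 with single libraries left out, and missed the threshold when any mutant library was left out.

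Same-numbered libraries had correlations of -0.52, 0.44, 0.06 and 0.08, so the numbers do not pair the samples. With the replicate block 3681 genes, 1 member (H2-K1 at 2.75), 4 further pathway genes, 5 heavy chain genes, 7 interferon genes and 27 interval genes were called. No WT library correlated best with the mutant library of its own number.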
